A study of Rattus norvegicus with 22 samples.

Results

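The dehydrogenases that reduce coenzyme Q were examined in livers of female Crl:CD(SD) rats, an outbred Sprague-Dawley stock, after acute dosing with GSK932121A, which the series title names as an inhibitor of complex III of the mitochondrial respiratory chain. The members were listed by name as enzymes that hand electrons to ubiquinone upstream of complex III: Gpd2, Etfdh, Prodh, Choldh and the complex II subunits Sdha, Sdhb, Sdhc and Sdhd. Of these 8 genes, 7 had a probe set whose single gene symbol was theirs, 1 probe set each, out of 18166 genes with such a probe set. Choldh was not analysed here. The probe sets were 17762247 for Gpd2, 17748119 for Etfdh, 17667043 for Prodh, 17611272 for Sdha, 17803776 for Sdhb, 17686570 for Sdhc and 17852281 for Sdhd.

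The treated group held 10 livers taken 5 hours after GSK932121A at 50 mg/kg, and the reference was 12 livers from rats given vehicle, for which the labels state no time. Every dose was a single intraperitoneal injection of 10 mL/kg, and the vehicle was the same suspension of mannitol, hydroxypropylmethylcellulose and sodium dodecyl sulphate without the compound. All rats were labelled as 12 weeks old, with a range of 10 to 14 weeks in the protocol, and RNA from the snap-frozen median lobe of each was hybridised to its own Affymetrix whole-transcript array. Each arm began with 12 dosed rats, and 2 treated animals were dropped by the submitters because their plasma exposure was low, so the treated group stands for animals that the compound reached.

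Ubiquinone, or coenzyme Q, is the mobile electron carrier of the inner mitochondrial membrane, and several flavin-dependent dehydrogenases besides complex I reduce it to ubiquinol, which complex III then oxidises. Succinate dehydrogenase, which is complex II, links the citric acid cycle to this pool, the electron transfer flavoprotein dehydrogenase ETFDH collects electrons from fatty acid, branched-chain amino acid and choline breakdown, GPD2 takes them from cytosolic glycerol 3-phosphate, and proline dehydrogenase takes them from proline. With complex III blocked, ubiquinol cannot be reoxidised by the usual route, and all of these enzymes depend on the same oxidised quinone. In liver they serve fuel oxidation, the transfer of cytosolic reducing equivalents into mitochondria, and amino acid disposal.

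The promoters of 3 members are shown because they belong to the gene that rose after treatment and to both complex II subunits whose windows held an ETS match. Each is a RefSeq window on GRCr8 of 250 bases before and 50 bases from the gene's listed start, written 5′ to 3′ on the gene's strand. Capitals mark matches to the ETS core CCGGAAG, bound by the GABP factor also called NRF-2, or to the cyclic AMP response element TGACGTCA, on either strand.
Gpd2, chr3:62211403-62211702, plus strand: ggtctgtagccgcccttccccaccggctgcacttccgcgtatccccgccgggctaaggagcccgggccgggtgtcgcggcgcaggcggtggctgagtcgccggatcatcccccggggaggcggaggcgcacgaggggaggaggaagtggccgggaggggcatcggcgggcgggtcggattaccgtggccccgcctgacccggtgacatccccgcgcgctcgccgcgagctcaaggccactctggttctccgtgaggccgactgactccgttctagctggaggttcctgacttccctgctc
Sdhb, chr5:158547684-158547983, plus strand: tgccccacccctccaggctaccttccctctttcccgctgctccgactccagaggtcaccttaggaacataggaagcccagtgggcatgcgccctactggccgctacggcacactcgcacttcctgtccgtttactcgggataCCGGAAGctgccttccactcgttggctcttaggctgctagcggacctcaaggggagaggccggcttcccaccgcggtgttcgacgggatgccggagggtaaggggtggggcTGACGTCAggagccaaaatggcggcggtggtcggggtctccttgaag
Sdhd, chr8:59850592-59850891, minus strand: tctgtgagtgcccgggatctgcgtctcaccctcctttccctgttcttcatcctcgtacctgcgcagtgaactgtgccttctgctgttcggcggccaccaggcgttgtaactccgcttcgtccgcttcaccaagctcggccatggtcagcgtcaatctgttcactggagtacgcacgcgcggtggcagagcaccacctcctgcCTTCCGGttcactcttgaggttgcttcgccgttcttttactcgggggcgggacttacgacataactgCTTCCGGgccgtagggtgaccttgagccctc

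Windows were found for 6 members, Gpd2, Etfdh, Sdha, Sdhb, Sdhc and Sdhd, and 4 motifs were searched on both strands. CCGGAAG stood once in the Sdhb window, starting 108 bases before the gene's start, and 2 times in the Sdhd window, starting 48 bases before and 19 bases after it, while 8.75% of all 33469 windows held it. TGACGTCA stood once, in the Sdhb window, 3 bases after the start, against 1.83% of all windows. Its shorter core TGACG, not in capitals on its own, overlaps that element and matched 2 times within it in the Sdhb window and once in the Sdhd window, 102 bases before the start, while 21.2% of all windows held it. The NRF-1 element, searched as GCGCA and GCGC with any 1 base between them and present in 4.25% of all windows, occurred 3 times in the Sdha window and once in that of Etfdh, starting 168 bases before the start. The Gpd2 window held no match to these letters, and neither did that of Sdhc. The GC content was 72.0% in the Gpd2 window and between 55.3% and 63.7% in the other 5. These matches are a description of the letters, and no binding was measured here.

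The arrays were alike in their overall distributions, with medians between 4.73 and 4.85 on the log2 scale of the deposited values and correlations between any pair of arrays of 0.971 to 0.990 across genes. Among 48 measured markers of 8 liver and blood cell types, 3 rose and 0 fell (6.25% passed): Cps1 of hepatocytes, Cd163 of Kupffer cells and Lyve1 of sinusoidal endothelium. Over all genes 12.4% passed, 5.31% upwards and 7.05% downwards. The mean log2 value of 6 hepatocyte markers ran from 11.5 to 11.7 in GSK932121A livers and from 11.4 to 11.6 in vehicle livers, and that of 9 Kupffer cell markers from 7.79 to 8.32 in GSK932121A livers and from 7.64 to 8.38 in vehicle livers. Of 7 neutrophil markers, 6 had a vehicle mean under the lowest array median, as did 4 of 6 cholangiocyte and 4 of 7 lymphocyte markers. Only 1 erythroid marker was measured. The part of these cell types in the results below was not tested, and in bulk liver fewer cells of a type and less RNA per cell cannot be told apart. One treated liver, GSK932121A replicate 13, was the lowest of its group for Prodh, Sdha, Sdhc and Sdhd, so their differences and the correlations described below are also given without it.

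The first question was which of these dehydrogenase genes differed between GSK932121A and vehicle livers. Gpd2 rose, and the other 6 members did not pass an adjusted p under 0.05. This is 1 of 7 members, and over all genes 12.4% passed, 5.31% upwards and 7.05% downwards, so the count of members lies near the background. The median log2 difference of the 7 members, GSK932121A minus vehicle, was -0.090, with 6 of 7 below 0, while over all genes the median was -0.0088 and 52.4% lay below 0.

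**Figure D1:**
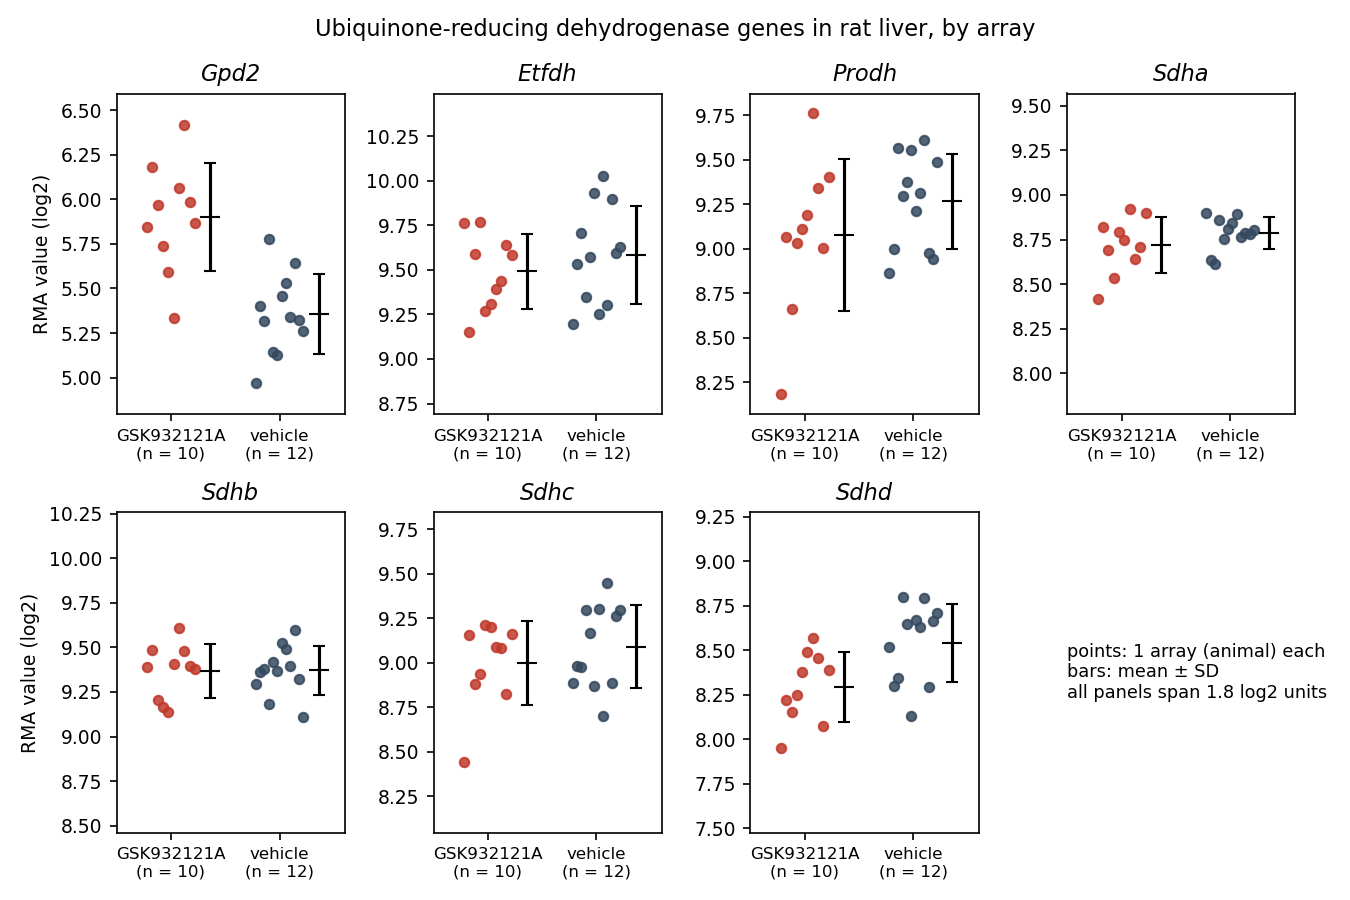
RMA values (log2) of 7 dehydrogenase genes in 10 GSK932121A livers (red) and 12 vehicle livers (dark blue), 1 point per array, with bars for the mean ± SD and the same span of 1.8 log2 units in every panel. In the Gpd2 panel 7 treated points lie above all vehicle points, and in the Sdhd panel all 10 treated points lie below the vehicle median of 8.64.

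Gpd2 encodes the mitochondrial glycerol-3-phosphate dehydrogenase, which sits on the outer face of the inner membrane and completes the glycerol phosphate shuttle. Its log2 value ran from 5.34 through a median of 5.92 to 6.42 in GSK932121A livers, and from 4.97 through a median of 5.33 to 5.78 in vehicle livers. The groups overlapped, but 7 of the 10 treated values exceeded all vehicle values, which 2.84% of all genes matched or exceeded, and all 10 lay above the vehicle median, as for 4.23% of all genes. The lowest treated value, in replicate 20, was barely above the vehicle median, and the highest was in replicate 22.

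Gpd2 averaged 5.90 ± 0.30 in GSK932121A livers and 5.36 ± 0.23 in vehicle livers (SD, n = 10 and 12), a log2 difference of 0.54 ± 0.11 (SE) or 1.46-fold (limma, adjusted p = 0.000941). The difference was larger than the SD of either group, and its 95% interval ran from 0.32 to 0.76. It kept its call in all 22 fits that left out 1 array, with adjusted p from 0.000144 to 0.00255. With 5 surrogate variables for hidden factors the difference was 0.40 and did not pass (adjusted p = 0.121), in a fit where those variables took up 45.5% of the variance of group. Gpd2 was the dimmest member, at the 54.4 percentile of all genes by mean value.

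Complex II oxidises succinate to fumarate, with Sdha as the flavoprotein, Sdhb as the iron-sulfur subunit and Sdhc and Sdhd as the membrane anchors that contribute to the ubiquinone site. None of these 4 genes passed. Sdha ran from 8.42 through a median of 8.73 to 8.92 in GSK932121A livers and from 8.61 through 8.79 to 8.90 in vehicle livers. Its treated values spread on both sides of the vehicle range, with 2 arrays above and 2 below all vehicle arrays. The difference was -0.069 ± 0.061 (SE; adjusted p = 0.548; 95% interval from -0.20 to 0.057). It was -0.036 without replicate 13 and -0.092 without GSK932121A replicate 21, the ends of the fits that left out 1 array.

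Sdhb had the difference nearest to 0 of the members. Its log2 values ran from 9.14 through 9.39 to 9.61 in GSK932121A livers and from 9.11 through 9.37 to 9.60 in vehicle livers. The groups covered nearly the same range, and the difference was -0.0055 ± 0.067 (SE; adjusted p = 0.973), with a 95% interval from -0.14 to 0.13. Its sign turned under 3 alternatives and in 6 of the fits that left out an array.

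Sdhc ran from 8.44 through 9.08 to 9.21 in GSK932121A livers and from 8.70 through 9.07 to 9.45 in vehicle livers. The lowest treated value was that of replicate 13, and the medians were almost equal. The difference was -0.090 ± 0.097 (SE; adjusted p = 0.638; 95% interval from -0.29 to 0.11), and it was -0.029 without replicate 13 and -0.058 without vehicle replicate 9. In the other direction it reached -0.13 without vehicle replicate 8.

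Sdhd ran from 7.95 through 8.31 to 8.57 in GSK932121A livers and from 8.13 through 8.64 to 8.80 in vehicle livers. All 10 treated arrays lay below the vehicle median, a pattern that 6.47% of all genes shared, but only 2 lay below every vehicle array. The vehicle livers were uneven: replicates 2, 3, 6 and 10 had 8.30, 8.34, 8.13 and 8.30, and the other 8 had 8.52 or more. Sdhd averaged 8.29 ± 0.20 in GSK932121A livers and 8.54 ± 0.22 in vehicle livers (SD, n = 10 and 12), a difference of -0.25 ± 0.09 (SE; 95% interval from -0.43 to -0.066).

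That difference of Sdhd did not pass over all genes (limma, adjusted p = 0.0687; unadjusted p = 0.0095). It passed when dim genes were left out, with an adjusted p of 0.0422 among genes with a mean log2 value of at least 5 and of 0.0356 among those of at least 7. It also passed without vehicle replicate 6 (adjusted p = 0.0256), without vehicle replicate 10 (0.0478) or without GSK932121A replicate 21 (0.0412), and it was -0.21 without GSK932121A replicate 13 (0.142). With 5 surrogate variables it was -0.11 (adjusted p = 0.536). Whether Sdhd differed from the other subunits in its response was not tested. RefSeq lists pseudogenes of Sdhc and of Sdhd, and whether the probes also read their transcripts was not tested.

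**Figure D2:**
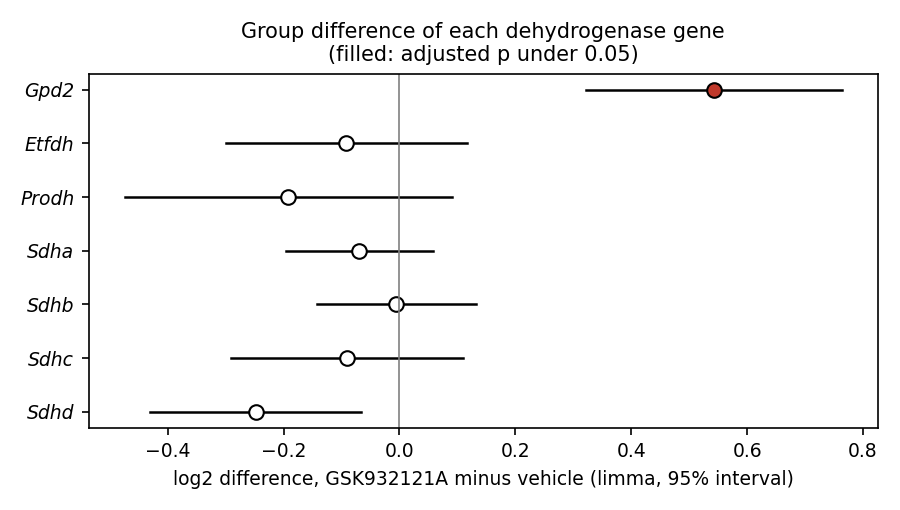
Log2 difference, GSK932121A minus vehicle, of each dehydrogenase gene (points) with its 95% interval from the limma fit (lines); the filled point passed an adjusted p under 0.05. Gpd2 is at 0.54, and the intervals of Etfdh, Prodh, Sdha, Sdhb and Sdhc include 0.

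Etfdh encodes the iron-sulfur flavoprotein that passes electrons from the electron transfer flavoprotein to ubiquinone. Its log2 values ran from 9.15 through 9.51 to 9.77 in GSK932121A livers and from 9.20 through 9.58 to 10.03 in vehicle livers. The groups overlapped almost fully, with 5 treated arrays on each side of the vehicle median. The difference was -0.092 ± 0.101 (SE; adjusted p = 0.649), and its 95% interval ran from -0.30 to 0.12. It was -0.051 without vehicle replicate 8, -0.060 without vehicle replicate 6 and -0.054 without GSK932121A replicate 14. In the other direction it reached -0.13 without vehicle replicate 1, and it did not pass in any fit that left out 1 array.

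Prodh encodes proline dehydrogenase, the first enzyme of proline breakdown. It ran from 8.18 through 9.09 to 9.76 in GSK932121A livers and from 8.86 through 9.30 to 9.61 in vehicle livers. Treated livers held both the lowest value, in replicate 13, and the highest, in replicate 21, and its range over all arrays, 1.58, was the widest of the members. The SD was 0.43 in GSK932121A livers and 0.27 in vehicle livers, and that of Sdha was 0.16 and 0.089. These differences in spread were not tested, and 50.9% of all genes had a larger SD among treated arrays. The difference of Prodh was -0.19 ± 0.14 (SE; adjusted p = 0.432; 95% interval from -0.47 to 0.090). It was -0.093 without replicate 13 and -0.27 without replicate 21, the ends of the fits that left out 1 array.

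How the members varied together was examined within each group, over 21 pairs in 10 GSK932121A livers and in 12 vehicle livers. After adjustment over these 42 values, 2 Pearson correlations and 1 Spearman correlation passed, all among treated livers, and 10 had an unadjusted permutation p under 0.05. Prodh and Sdhd varied together in GSK932121A livers (r = 0.89, permutation p = 0.00036, adjusted p = 0.0151; rho = 0.93, permutation p = 0.00024, adjusted p = 0.0101; n = 10). Without the 2 arrays farthest from the median of Prodh, r was 0.74 (exact permutation p = 0.0306, adjusted p = 0.184), and without replicate 13 it was 0.82 (exact permutation p = 0.0046, adjusted p = 0.194). In vehicle livers r was 0.11, and whether the groups differ in this relation was not tested.

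Between the membrane anchors Sdhc and Sdhd the Pearson correlation passed in GSK932121A livers, where the rank correlation did not, and neither passed in vehicle livers. In GSK932121A livers r was 0.82 (permutation p = 0.0021, adjusted p = 0.0439; rho = 0.68, permutation p = 0.0351, adjusted p = 0.207; n = 10), and in vehicle livers it was 0.69 (permutation p = 0.0146, adjusted p = 0.0875; rho = 0.80, permutation p = 0.00295, adjusted p = 0.0619; n = 12). Without the 2 arrays farthest from the median of Sdhc, r was 0.55 in GSK932121A livers (exact permutation p = 0.165) and 0.89 in vehicle livers (permutation p = 0.0023, adjusted p = 0.0480). Without replicate 13, r in treated livers was 0.71 (exact permutation p = 0.0382, adjusted p = 0.267). The call was lost there, but no pair of members passed in that set, in which 9 treated livers remained. Sdhb had no such relation to Sdhc, with r of 0.073 in GSK932121A livers and -0.38 in vehicle livers, and both values missed the threshold.

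The correlations of Etfdh with both anchors were below 0, and none passed with all arrays. Its r with Sdhc was -0.76 in GSK932121A livers (permutation p = 0.0067, adjusted p = 0.0636; rho = -0.79, permutation p = 0.0089, adjusted p = 0.124; n = 10) and -0.64 in vehicle livers (permutation p = 0.0277, adjusted p = 0.145; rho = -0.58, permutation p = 0.0538, adjusted p = 0.226; n = 12). Without the 2 arrays farthest from the median of Etfdh, that r was -0.85 in GSK932121A livers and -0.83 in vehicle livers, each with an adjusted p of 0.0480 (permutation test), and without replicate 13 it was -0.75 in treated livers (adjusted p = 0.267, exact permutation test). Its r with Sdhd was -0.56 in GSK932121A livers (permutation p = 0.0945, adjusted p = 0.331; rho = -0.50, permutation p = 0.144, adjusted p = 0.431; n = 10) and -0.53 in vehicle livers (permutation p = 0.0814, adjusted p = 0.311; rho = -0.50, permutation p = 0.104, adjusted p = 0.365; n = 12). Without the 2 arrays farthest from the median of Etfdh, the r with Sdhd was -0.83 in GSK932121A livers (adjusted p = 0.106) and -0.79 in vehicle livers (adjusted p = 0.0806), and without replicate 13 it was -0.40 in treated livers (adjusted p = 0.650). Gpd2, the gene that rose, had no unadjusted Pearson permutation p under 0.05 with any other member in either group, and by rank only its relation to Sdhb in GSK932121A livers did (Spearman permutation p = 0.0483).

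**Figure D3:**
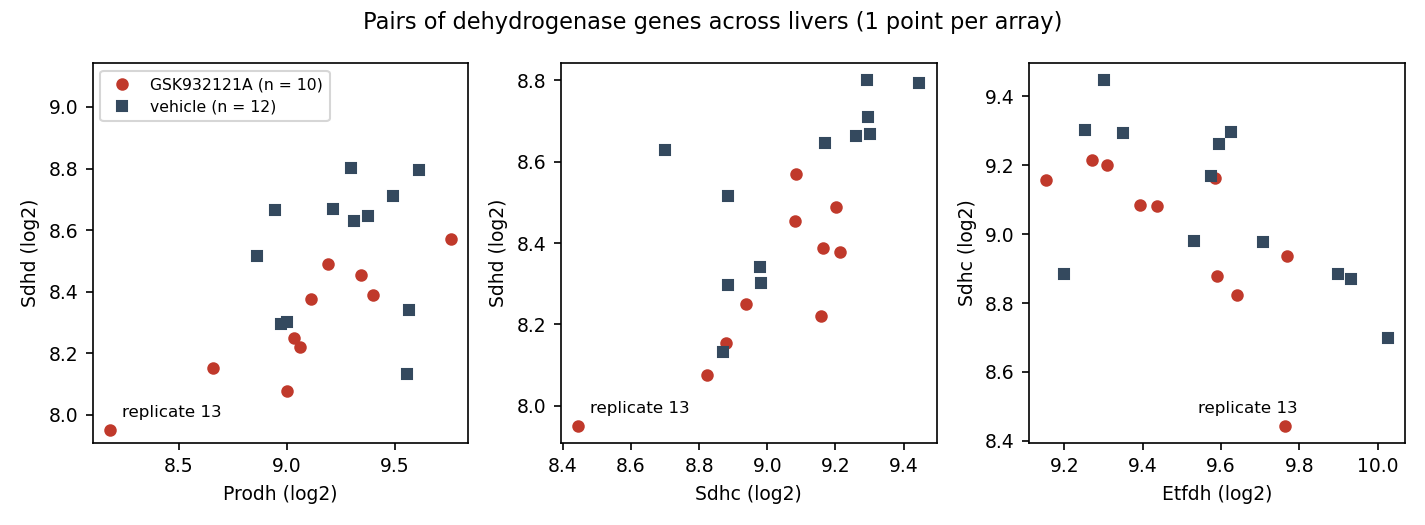
Log2 values of Prodh against Sdhd, Sdhc against Sdhd and Etfdh against Sdhc, 1 point per liver, with GSK932121A livers as red circles and vehicle livers as dark squares. The treated points rise together in the left and middle panels (r of 0.89 and 0.82) and slope down in the right one (r of -0.76), with replicate 13 at the low end of Sdhc and Sdhd.

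The genes most like each member were taken as those with the highest value of the lower of both within-group Pearson correlations, over 10 GSK932121A and 12 vehicle livers, and they are named as a description. Sdhd was most like Rps4x-ps9, a ribosomal protein pseudogene (lower r of 0.93), Cox6a1, a subunit of cytochrome c oxidase (0.91), and Nabp2 (0.89). Rps4x-ps9 was bright, with means of 11.2 in GSK932121A livers and 11.4 in vehicle livers. Whether its probes also read the transcript of the parent gene was not tested. Sdhc was most like Cdk2ap1 (0.88), the complex I subunit gene Ndufs8 (0.87) and the ubiquitin ligase gene Rnf181 (0.87). Of the genes named here as most alike, Rnf181 alone passed the comparison of groups, with a log2 difference of -0.62 (limma, adjusted p = 0.000143). Etfdh was most like Txndc17 (0.87), Hnrnpu, which encodes an RNA-binding protein (0.87), and Dmtf1l1 (0.87).

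The other members had looser partners. Sdhb was most like the taurine transporter gene Slc6a6 (0.81), Defb14 (0.74) and Cops6 (0.70). Defb14 was dim, with means of 2.91 in GSK932121A livers and 2.86 in vehicle livers, under the lowest array median of 4.73. Sdha was most like Oxnad1 (0.74), Tmem147 (0.69) and Bckdha of branched-chain ketoacid oxidation (0.69). Prodh was most like Acmsd, an enzyme of tryptophan breakdown (0.77), the lysosomal membrane gene Lamp1 (0.74) and Gpld1 (0.74). The closest partner of Gpd2, Chst9 (0.71), had the lowest likeness of the 7 closest partners, and Gpd2 was next most like Mccc2 of leucine breakdown (0.70) and Asap2 (0.68).

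Genes that feed these enzymes, or share their pathways, were then set beside them in 7 lists. Of 57 measured pathway genes, 5 rose, 3 fell and 49 did not pass, which is 14.0% passed against 12.4% of all genes, and 4 of the 57 belong to more than 1 list. Their median difference was -0.044. The 5 rises were Got1, Bhmt, Pcyt1a, Dmgdh and Sardh, and the 3 falls were Acads, Pycr3 and Cs.

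On the donor side of Gpd2, the cytosolic partner gene Gpd1, which makes the glycerol 3-phosphate that Gpd2 oxidises, averaged 10.37 ± 0.21 in GSK932121A livers and 10.38 ± 0.15 in vehicle livers (SD, n = 10 and 12). It did not pass (difference -0.0068 ± 0.0795, SE; adjusted p = 0.972; 95% interval from -0.17 to 0.16). Of 10 genes of the NADH shuttles and glycerol handling, 1 rose and 0 fell: Got1, the cytosolic aspartate aminotransferase of the malate-aspartate shuttle, averaged 11.50 ± 0.30 in GSK932121A livers and 9.44 ± 0.52 in vehicle livers (difference 2.06 ± 0.17, SE; limma, adjusted p = 8.87e-09). All 10 treated arrays of Got1 lay above every vehicle array, where 0.738% of all genes had groups that did not overlap. The median difference of the list was -0.082, with 8 of 10 below 0. Over all genes 12.4% passed and 52.4% lay below 0, and the list itself was not tested. In limma 4 of its genes had an unadjusted p under 0.05. Besides Got1 these were Gk, Slc25a11 and Mdh2, which did not pass. Gk, glycerol kinase, had a difference of -0.21 (adjusted p = 0.0662), Slc25a11 of -0.16 (0.0730) and Mdh2 of -0.17 (0.0816).

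On the donor side of Etfdh, 14 genes of the electron transfer flavoprotein and the dehydrogenases that reduce it were measured. Of these, 2 rose and 1 fell, while 12.4% of all genes passed. The median was -0.076 and 12 of 14 lay below 0, against 52.4% of all genes, and the list itself was not tested. Dmgdh and Sardh, the dimethylglycine and sarcosine dehydrogenases of choline breakdown, rose by 0.32 ± 0.08 and 0.34 ± 0.10 on the log2 scale (SE; limma, adjusted p = 0.0108 and 0.0188). Acads, the short-chain acyl-CoA dehydrogenase, averaged 7.11 ± 0.22 in GSK932121A livers and 7.37 ± 0.16 in vehicle livers (SD, n = 10 and 12; limma, adjusted p = 0.0343). Omitting 1 array ended that call in 8 of 22 cases, the highest adjusted p being 0.0708 (GSK932121A replicate 13 omitted), as did median centring (0.0548), cyclic loess (0.0544), all probe sets (0.0602), the Welch test (0.0549) and surrogate variables (0.237). The flavoprotein genes Etfa and Etfb had differences of -0.13 and -0.16 that did not pass.

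Of 11 measured choline and betaine genes, 4 rose and 0 fell, with a median of 0.099, while 5.31% of all genes rose. That share includes dim genes: among genes with a mean log2 value of at least 5, as all 11 have, 963 of 10410 rose. The list itself was not tested. Dmgdh and Sardh are among the 4. Bhmt, which uses betaine to remethylate homocysteine and so makes dimethylglycine, averaged 12.54 ± 0.17 in GSK932121A livers and 11.94 ± 0.30 in vehicle livers (SD, n = 10 and 12), 1.51-fold (limma, adjusted p = 0.000216). Pcyt1a, an enzyme of phosphatidylcholine synthesis, averaged 7.52 ± 0.27 in GSK932121A livers and 6.97 ± 0.18 in vehicle livers, 1.46-fold (limma, adjusted p = 0.00021). For both of these genes 9 of the 10 treated values exceeded all vehicle values, where 2.84% of all genes had at least 7 such values. The share of all genes with at least 9 is not given here. The call of Dmgdh was lost with surrogate variables (adjusted p = 0.235), while Bhmt, Pcyt1a and Sardh passed under each of the 12 alternatives run besides leaving out arrays. Aldh7a1, which oxidises betaine aldehyde, differed by 0.0045 and did not pass (adjusted p = 0.983).

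Around Prodh, 6 proline genes were measured, of which 0 rose and 1 fell, while 5.31% of all genes rose and 7.05% fell. Pycr3, a pyrroline-5-carboxylate reductase, averaged 6.50 ± 0.20 in GSK932121A livers and 6.78 ± 0.21 in vehicle livers (SD, n = 10 and 12; limma, adjusted p = 0.0366). Omitting 1 array ended the call in 12 of 22 cases, the highest adjusted p being 0.0691 (GSK932121A replicate 13 omitted), as did median centring (0.0581), cyclic loess (0.0552), all probe sets (0.0644), the rank sum test (0.0685) and surrogate variables (0.0618). Prodh2, which encodes hydroxyproline dehydrogenase, had a difference of -0.19 that did not pass (adjusted p = 0.125).

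Around complex II, none of 3 measured assembly factor genes passed in limma, with 2 at an unadjusted p under 0.05. Sdhaf1 and Sdhaf2, which help to insert the iron-sulfur clusters and the flavin, differed by -0.22 and -0.17 (adjusted p = 0.203 and 0.171), and Sdhaf3 by -0.083. Of 12 genes of the citric acid cycle, 0 rose and 1 fell, with a median of 0.030, while 12.4% of all genes passed. Cs, citrate synthase, averaged 8.17 ± 0.19 in GSK932121A livers and 8.38 ± 0.10 in vehicle livers (SD, n = 10 and 12; limma, adjusted p = 0.0489). Omitting 1 array ended that call in 17 of 22 cases, the highest adjusted p being 0.106 (GSK932121A replicate 13 omitted), and 7 of 12 other alternatives ended it too, the highest adjusted p being 0.158.

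The other quinone reductases did not pass in limma: 0 of 5, with 1 at an unadjusted p under 0.05, while 12.4% of all genes passed. They include Dhodh of pyrimidine synthesis, with a difference of 0.045 (adjusted p = 0.859), and Sqor, the sulfide quinone oxidoreductase, with 0.26 ± 0.20 (SE; adjusted p = 0.464). The SD of Sqor was 0.33 in GSK932121A livers and 0.62 in vehicle livers.

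**Figure D4:**
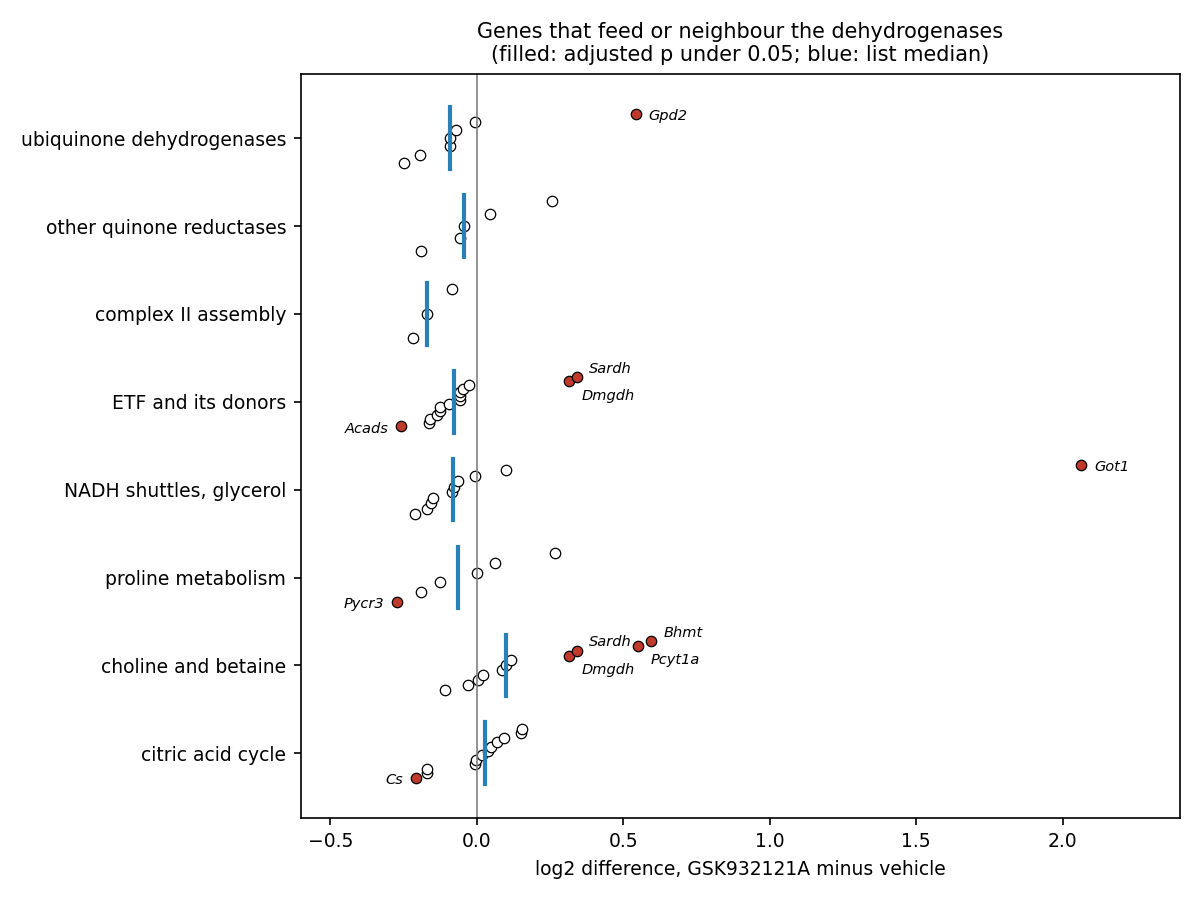
Log2 differences, GSK932121A minus vehicle, of the dehydrogenase genes and of 57 genes in 7 related pathway lists, 1 point per gene, with filled points for an adjusted p under 0.05 and blue lines at list medians; 4 genes appear in more than 1 list. Got1 lies at 2.06, the other rises lie between 0.32 and 0.60, and the falls of Acads, Pycr3 and Cs lie between -0.27 and -0.21.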

How the data were processed

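The deposited values were log2 expression values made by the authors with RMA, which corrects background, normalises between arrays and summarises probes, per the submitters' processing notes. No source used here names the software version or how probe sets were defined. The deposited log2 values ran from 0.67 to 13.8. A change shared by all genes would be lost in this normalisation.

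The platform annotation gave 1 gene symbol to 18511 of the 36685 probe sets, several to 575 and none to 17599. Where 291 genes had more than 1, the probe set with the highest mean was used. Groups came from the sample titles, which give no batch or pairing. The number of arrays limits the precision.

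The 18166 genes were fitted in limma 3.58.1 (R 4.3.3) with group alone, empirical Bayes moderation and Benjamini-Hochberg adjustment over all genes, and passed at an adjusted p under 0.05. The fit was tested on simulated data. Correlations used two-sided permutation tests of 100000 resamples, exact over all pairings for 9 or fewer arrays (Python 3.11.15, numpy 2.4.6, scipy 1.17.1, pandas 2.3.3). Plots used matplotlib 3.10.9. Promoter sequences are from RefSeq (GRCr8).

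The text names every measured member, every pathway gene that passed and the 3 genes most like each member. Gpd1, Gk, Slc25a11, Mdh2, Etfa, Etfb, Aldh7a1, Prodh2, Sdhaf1, Sdhaf2, Sdhaf3, Dhodh and Sqor were added after their values were seen. Members and lists were chosen with earlier results of these data known. Alternatives were 3 other normalisations, leaving out genes whose mean was under 5 or under 7 (log2), averaging the probe sets of a gene, testing all probe sets, robust moderation with an intensity trend, weighting arrays, the rank sum test, the Welch test, 5 surrogate variables from limma's wsva, and each array left out. The alternatives for pathway genes and the correlations without GSK932121A replicate 13 were added after the data were seen.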

Additional observations from a re-analysis of the deposited data

Results flagged for a closer look

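Among the 7 members and the 8 pathway genes that passed, the lowest and highest of the 10 GSK932121A arrays were compared with their nearest neighbour by Dixon's test. The value of Sdhc in GSK932121A replicate 13, 8.44, stood apart: the next lowest treated array had 8.82, and the gap was 0.491 of the group's range, past the 95% critical value of 0.466. This was 1 flag among 15 genes, and chance flags about 1 in 20 groups. The array had the lowest of the 22 array weights, 0.774.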

How the results depend on the processing

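No paired analysis was possible because the groups share no replicate numbers. Under the 12 alternatives besides leaving out arrays, Etfdh and Sdha kept their sign and did not pass in any. A member's difference, and so its sign, could move only with the other normalisations, array weights or surrogate variables. The remaining alternatives leave it as it was and alter only the test. Sdhb turned to 0.0031 with renewed quantile normalisation, 0.035 with cyclic loess and 0.0059 with array weights. With 5 surrogate variables Prodh turned to 0.091 and Sdhc to 0.036, Gpd2 was 0.40 and did not pass, 0 members and 603 genes passed, and 4 pathway genes passed; the cause was not tested. Among genes with a mean log2 value of at least 5, 2 members passed, since Sdhd (-0.25) then passed, as it did at 7, with fewer genes tested. At 7, 1217 genes passed and Gpd2, which is dimmer, has no value. The count of pathway genes was 5 of 57 with median centring, cyclic loess or all probe sets, against 8 of 57 (5 rose, 3 fell). At a mean of at least 5 it was 11 of 57 (5 rose, 6 fell), beside 2385 of all 10410 genes. At a mean of at least 7 it was 10 of 47 (5 rose, 5 fell), beside 1217 of all 4199 genes. With both filters a smaller share of the pathway genes than of all genes passed. Cyclic loess gave 1084 rises and 1040 falls over all genes, against 964 and 1280, and scaling moved the median of all genes by at most 0.0098.

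Leaving out 1 array gave 1 to 2 members passed, 5 to 8 pathway genes, 1854 to 2386 genes, -0.033 to 0.020 for Sdhb and -0.29 to -0.21 for Sdhd. The fewest pathway genes, 5, came without vehicle replicate 7 or without GSK932121A replicates 13, 17 or 23. Of the correlations between members, 2 passed with all arrays, 3 without the 2 arrays farthest from the median and 0 without GSK932121A replicate 13. The 3 were Etfdh with Sdhc in each group and Sdhc with Sdhd in vehicle livers. Neither of the 2 calls made with all arrays was among them. Small changes of dim probe sets lie near the background, and 10 against 12 arrays limit what differences could be called.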

Other observations

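The log2 ratio of Gpd2 to Gpd1 within an array, chosen after the values were seen and given with no test, ran from -4.78 through a median of -4.45 to -3.97 in GSK932121A livers and from -5.30 through -5.03 to -4.69 in vehicle livers. The ratio was above that of every vehicle array in 8 of 10 treated arrays. Since the pair was picked after the rise of Gpd2 and the difference of Gpd1 near 0 had been seen, the ratio restates those values, and it does not compare the levels of both genes.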
